A study of Mus musculus with 16 samples.

Results

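Insulin-like growth factor 1 (Igf1), its receptors Igf1r and Igf2r, and the IGF binding proteins Igfbp2, Igfbp3, Igfbp4, Igfbp5, Igfbp6 and Igfbp7 were followed in RNA of sorted mouse muscle stem cells (MuSCs). These 9 genes were picked by symbol, and all 9 were found among the 24411 genes of the count table. MuSCs had been isolated from skeletal muscle by fluorescence-activated cell sorting as cells without CD11b, CD45, CD31 and Sca1 and with VCAM and α7-integrin. The study also sorted with CD34 in place of VCAM, and the sample titles do not name the gate. Control mice, labelled wild type, were compared with TRF2 MuSC-cKO mice, labelled TRF2 knockout, in which floxed TRF2 is deleted by a tamoxifen-induced Cre that the Pax7 gene drives. All mice were on a C57BL/6 background. Whether the control mice carried Cre or received tamoxifen is not stated for these libraries. The labels give no age for single mice. Each genotype was sampled uninjured and 3 days after injury (3 DPI) by 10 µl of notexin, a snake toxin that destroys myofibers, injected into the tibialis anterior muscle. There were 4 libraries per group, described as biological replicates and 16 in all.

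IGF1 is a secreted growth factor that acts through the receptor tyrosine kinase encoded by Igf1r, which recruits adaptors such as IRS1 and IRS2 and signals through PI3 kinase and AKT to mTOR and the FOXO transcription factors. In muscle the pathway is known for driving growth, myoblast proliferation and differentiation, and both myogenic cells and the macrophages of injured muscle are known to make IGF1. The receptor encoded by Igf2r has no kinase. It takes up IGF2 for degradation and carries mannose 6-phosphate-tagged enzymes to lysosomes. The binding proteins hold IGFs outside the cell and can lengthen their half-life or keep them from the receptor, until proteases release them.

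Library totals ran from 620506 to 1351130 estimated counts, and 20938 to 21881 genes had a count in the libraries of all groups but the 3 DPI one labelled TRF2 MuSC-cKO, where 15389 to 21193 genes did. The lowest of these was replicate 3 of that group. Terf2, the gene of TRF2, was at 66.3 to 94.5 CPM (read counts scaled to a common library size and composition) in uninjured controls and at 27.2 to 58.7 CPM in uninjured TRF2 MuSC-cKO MuSCs. The groups did not overlap, but the log2 fold change of -0.62 ± 0.27 (SE) was not called (edgeR adjusted p = 0.199). At 3 DPI, Terf2 was at 35.5, 48.6, 48.2 and 42.8 CPM in controls and at 52.6, 21.9, 66.9 and 89.7 CPM in the libraries labelled TRF2 MuSC-cKO. It was thus not lower in that group, and these libraries are named by their label below. The markers of MuSCs listed for the check, 12 genes including Pax7, summed to 4353 to 6554 CPM in uninjured controls, 2385 to 3564 CPM in uninjured TRF2 MuSC-cKO, 1354 to 1829 CPM in 3 DPI controls and 704 to 852 CPM in the libraries labelled TRF2 MuSC-cKO at 3 DPI. The 14 macrophage markers summed to 109 to 197 CPM in uninjured controls and 181 to 246 CPM in uninjured TRF2 MuSC-cKO, where 12 means were higher and 2 lower. The 5 neutrophil markers summed to 9.83 to 23.4 and 31.2 to 60.8 CPM in these groups. At 3 DPI the macrophage markers summed to 5773 to 7322 CPM in controls, although the sort removes CD11b and CD45 cells. In the libraries labelled TRF2 MuSC-cKO they summed to 2297 to 6923 CPM, where replicate 3 was the lowest and the other 3 were at 4991 to 6923 CPM. None of the macrophage markers was at 0 throughout a group. In bulk RNA of this kind, fewer cells of a type and less RNA per cell cannot be told apart.

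Which members dominate was read from the second deposited table, in which the authors scaled abundances by transcript length to library totals, so that genes can be compared with each other. Values are given as length-adjusted CPM, the CPM of that table. In uninjured control MuSCs, Igfbp5, a binding protein known to be induced early in myogenic differentiation, led at 488 ± 121 length-adjusted CPM (mean ± SD, n = 4) and made up 38.7% of the summed level of the 9 genes. It was followed by Igfbp4, an inhibitor of IGF action, at 180 ± 28.1, Igf2r at 154 ± 24.5 and Igfbp7, a low-affinity IGF binder known from blood vessels, at 150 ± 62.9. These neighbours overlapped in their libraries, as did Igf1 at 102 ± 44.1, Igf1r at 77.8 ± 24.1 and Igfbp6, which prefers IGF2, at 63.4 ± 14.97. Igfbp3, the main IGF carrier of serum, was at 27.5 ± 8.504 and Igfbp2 at 18.0 ± 10.2. The gap below Igfbp5 and the gap below Igfbp6 were the places in this order where neighbours did not overlap. In uninjured TRF2 MuSC-cKO MuSCs, Igfbp5 again led, at 591 ± 112, and Igfbp6, at 155 ± 46.8, stood at rank 4 rather than 7.

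At 3 DPI the order was different. Igfbp7 led in controls at 358 ± 46.9, with no overlap with Igfbp4 at 216 ± 37.0, and Igfbp5 was at rank 3 with 196 ± 16.8, or 17.2% of the summed level. Igf1 was at rank 4 with 115 ± 9.94. Igf1r, at 24.4 ± 6.06, had fallen to rank 8 and overlapped with Igfbp3 and Igfbp2 beside it. In the libraries labelled TRF2 MuSC-cKO at 3 DPI, Igfbp7 at 315 ± 105, Igfbp4 at 206 ± 77.8, Igf1 at 199 ± 125 and Igfbp5 at 170 ± 46.9 overlapped one after the other, so no leader stood apart. Without replicate 3, where Igf1 was at 381, Igf1 was at 138.5 ± 36.1 (n = 3) and at rank 4, under Igfbp5 at 187 ± 39.8. The same levels from counts divided by annotated exon length lay more than 1 SD away in 21 of 36 cases, so the order is that of the deposited length scaling.

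**Figure D1:**
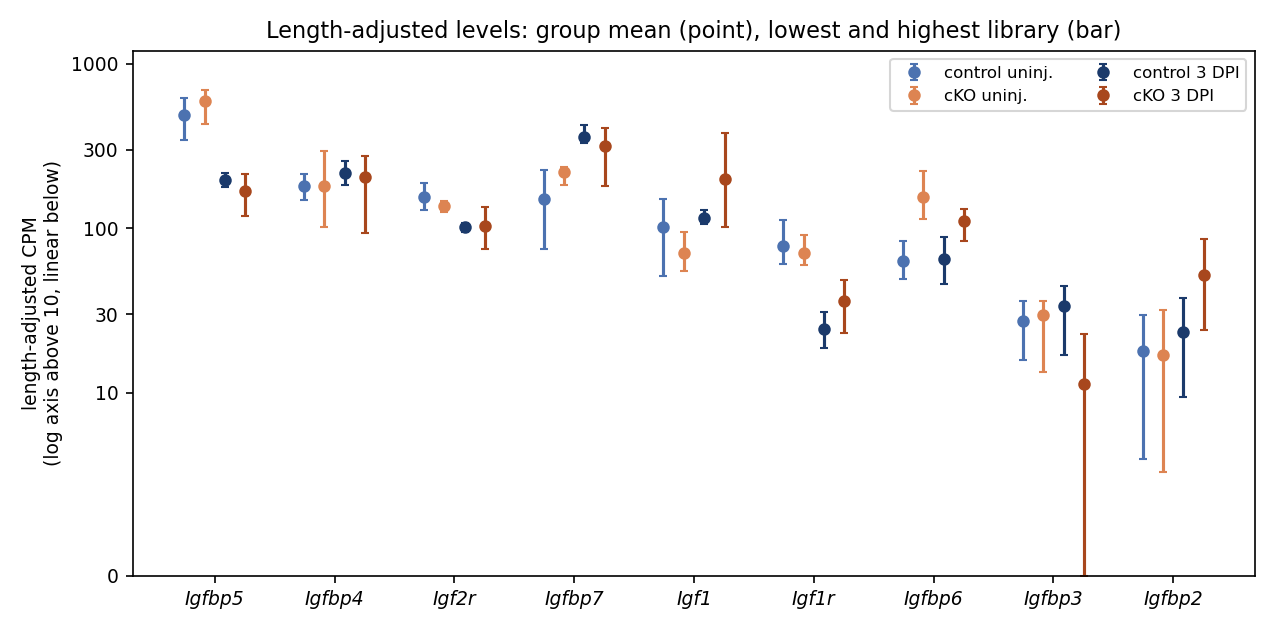
Length-adjusted level of the 9 genes (length-adjusted CPM, log axis above 10 and linear below) by group, with the mean of 4 libraries as a point and the lowest and highest library as a bar. Igfbp5 leads without injury in both genotypes, at means of 488 and 591, and Igfbp7 has the highest mean at 3 DPI, at 358 and 315.

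The first comparison asked which of these genes differ when TRF2 is deleted in resting MuSCs. Calls needed both an adjusted p under 0.02 and a fold change over 1.5. By this rule 3.22% of all 14048 genes tested were called between the genotypes, 0.584% higher and 2.63% lower in TRF2 MuSC-cKO. Of the 9 genes 8 passed the filter on low counts and 2 were called, Igf1 lower and Igfbp6 higher. Igfbp2 was too low to be tested, at 2.37 to 16.98 CPM in the 8 libraries.

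Igf1, the ligand, was at 284, 199, 186 and 113 CPM in the 4 uninjured controls and at 58.0, 83.1, 95.9 and 72.2 CPM in the 4 uninjured TRF2 MuSC-cKO libraries. Every TRF2 MuSC-cKO library lay under the lowest control, and 11.6% of all genes had genotypes that did not overlap. The log2 fold change was -1.22 ± 0.24 (SE), a 2.33-fold lower level (edgeR adjusted p = 0.000712), and among all genes tested it ranked 110th by p. The call held with each of the 8 libraries left out in turn (adjusted p from 0.000204 to 0.0145) and was lost with limma (adjusted p = 0.0244) and after the length adjustments described next. The MuSC markers moved with it, with 8 of 12 called lower, and their part in the result was not tested.

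The lower Igf1 count was not matched by a called difference in its length-adjusted level. Igf1 lies on chromosome 10 (chr10:87858265-87937042, plus strand, GRCm38), and the GENCODE M21 annotation gives it 8 transcripts of 510 to 7052 bases, the longest with a long 3′ untranslated region. Random-primed counts rise with the length of the transcript that is read. The ratio of the count to the length-scaled value gives the mean transcript length assigned to a gene in each library, expressed here relative to the geometric mean of the 16 libraries. For Igf1 this length factor was 1.24, 1.09, 1.68 and 1.37 in uninjured controls, and 0.867, 0.704, 1.48 and 0.806 in uninjured TRF2 MuSC-cKO. Replicate 3 was the highest of its group in both genotypes, and the groups overlapped. TRF2 MuSC-cKO was at 0.694 of control (exact permutation test of the log2 values, two-sided, p = 0.114, where 0.0286 is the smallest that 4 against 4 allow). At 3 DPI the ratio was 0.730 (exact permutation p = 0.0857), and 0.842 without replicate 3 of the libraries labelled TRF2 MuSC-cKO (exact permutation p = 0.171).

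With the length factor as an offset in the fit, added after the data were seen, Igf1 was at -0.71 on the log2 scale and not called (edgeR adjusted p = 0.103). On the length-scaled table, where 0.101% of all genes were called, it was at -0.74 (adjusted p = 0.338). The length-adjusted level was 102 ± 44.1 length-adjusted CPM in control and 71.0 ± 17.9 in TRF2 MuSC-cKO, and the groups overlapped. Igf1 was rare in this respect. Of 6115 genes with enough counts 25 (0.409%) varied more in their length factor over the 16 libraries, where the SD of Igf1 was 0.44 on the log2 scale, the median of all genes 0.00344 and the highest of the other 8 members 0.01003. Which transcript or 3′ end the Igf1 reads came from was not measured. Igf1os lies on the opposite strand within the gene and is not in the count table under that symbol. The strand setting used for counting is not stated.

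**Figure D2:**
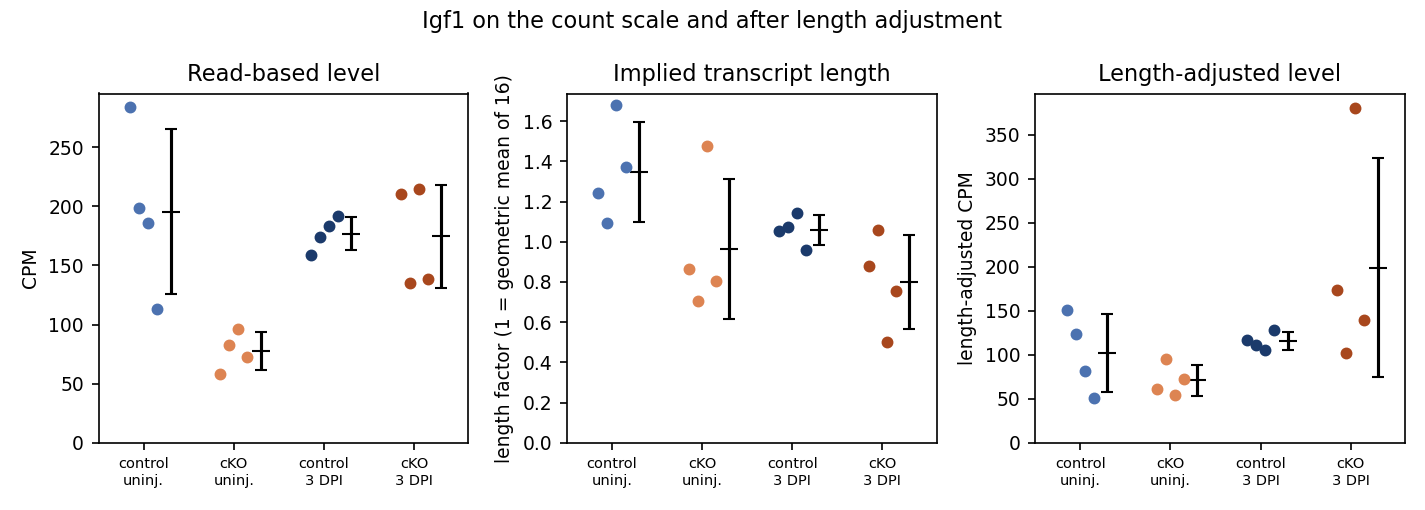
Igf1 in each library as CPM (left), as implied transcript length relative to the geometric mean of the 16 libraries (middle) and as length-adjusted CPM (right). Points are libraries and the bars give mean ± SD of 4. The uninjured genotypes are apart on the left, with all TRF2 MuSC-cKO libraries under 113 CPM, and overlap in the middle and on the right.

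Igfbp6 (chr15:102144362-102149511, plus strand) has 1 annotated transcript, of 1112 bases. It was at 46.5, 35.1, 27.9 and 29.2 CPM in uninjured controls and at 89.9, 67.5, 60.1 and 51.8 CPM in uninjured TRF2 MuSC-cKO. All 4 TRF2 MuSC-cKO libraries lay above all controls. The log2 fold change was 1.08 ± 0.29 (SE), a 2.12-fold higher level, with an edgeR adjusted p of 0.0177 close to the threshold. The call was lost in 7 of 8 fits that left out 1 library (adjusted p 0.0189 to 0.128 over the 8, kept without TRF2 MuSC-cKO replicate 4) and in 6 of the other 11 alternatives, while the log2 fold change stayed between 0.88 and 1.28 in all 19. Of 10 fibroadipogenic markers, 9 had a higher mean in TRF2 MuSC-cKO, with Dcn and Smoc2 called, and Dpt, the most abundant, was called lower. Their summed level was 347 to 513 CPM in control and 348 to 453 CPM in TRF2 MuSC-cKO, and without Dpt, a sum taken after the data were seen, 159 to 204 and 290 to 372 CPM, with no overlap, although the sort removes Sca1 cells. Of 8 pericyte and smooth muscle markers, 5 had a higher mean, with Rgs5 and Cspg4 called, at a summed level of 2354 to 3357 CPM in control and 1957 to 2776 CPM in TRF2 MuSC-cKO. Without Notch3, the most abundant of these, the sum was 876 to 1207 and 777 to 1786 CPM. The part of these cells in the Igfbp6 result was not tested.

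Neither receptor was called between the uninjured genotypes. Igf1r was at 314 to 665 CPM in control and 270 to 361 CPM in TRF2 MuSC-cKO (log2 fold change -0.35 ± 0.21, edgeR adjusted p = 0.344), and Igf2r at 477 to 821 and 370 to 490 CPM (-0.37 ± 0.19, adjusted p = 0.279). Igfbp5, the most abundant member, was at 826 to 1673 CPM in control and 836 to 1523 CPM in TRF2 MuSC-cKO (log2 fold change 0.08 ± 0.20). Igfbp3, Igfbp4 and Igfbp7 were at -0.06, -0.20 and 0.34 on the log2 scale, and their groups overlapped. The sign for Igfbp3 and Igfbp5 depends on the processing. The libraries of each genotype also carry different codes in their descriptions, with no code in common, whose meaning is not stated, so code and genotype cannot be told apart without injury.

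**Figure D3:**
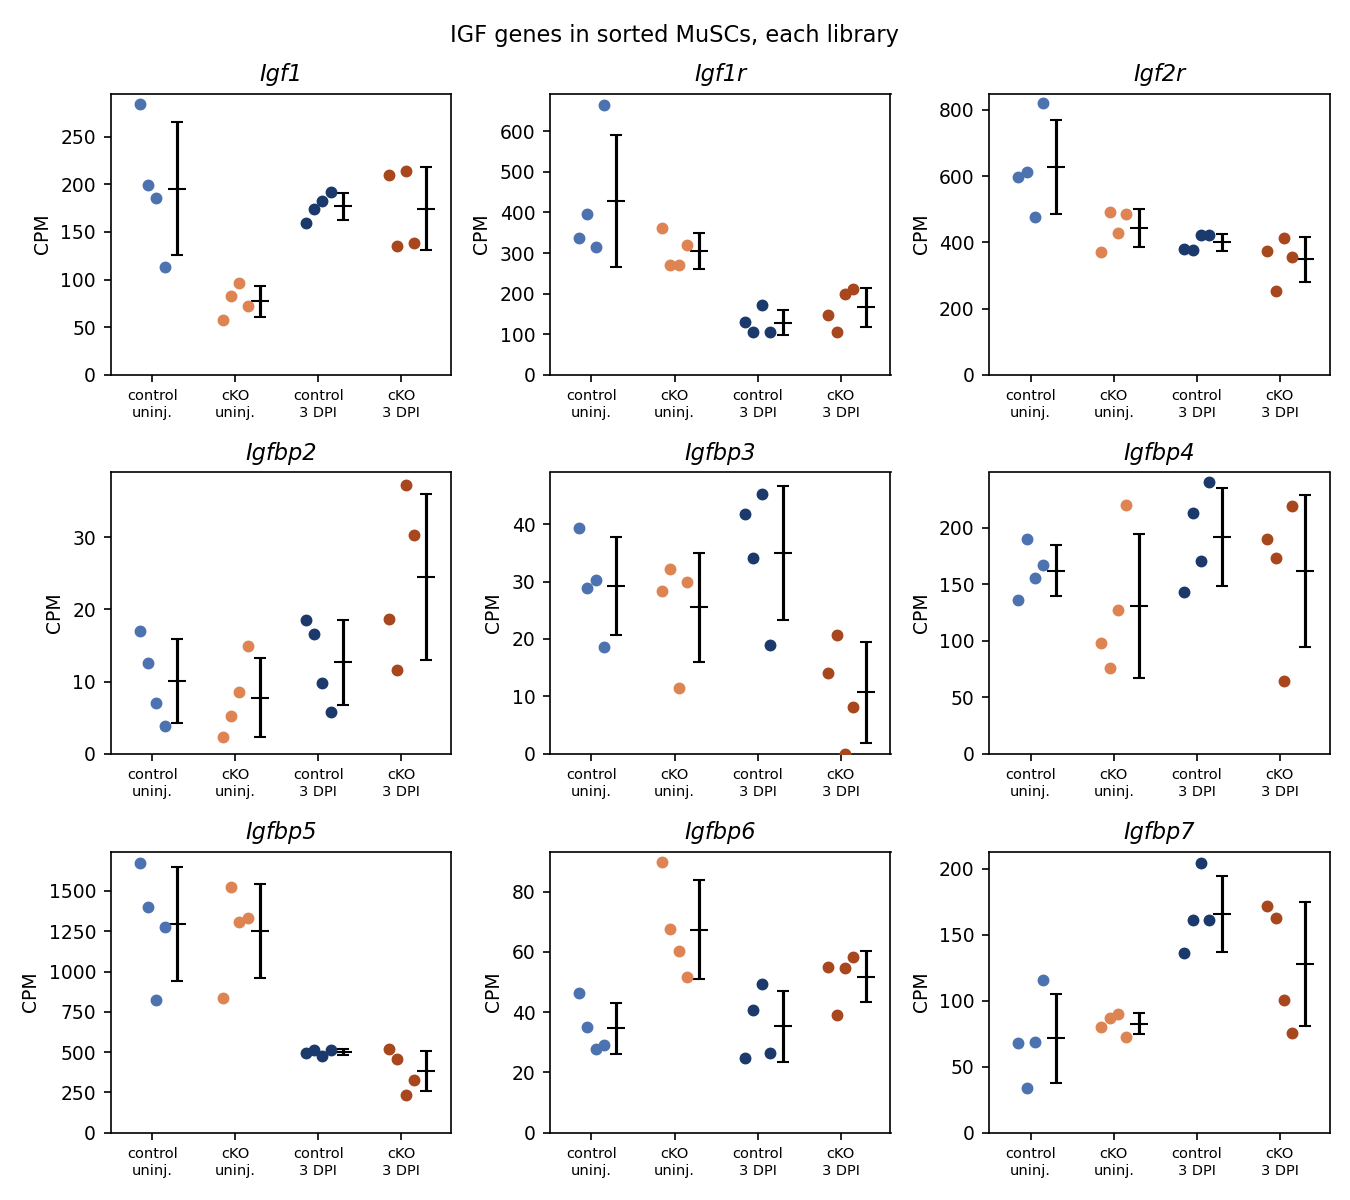
CPM of the 9 genes in each of the 16 libraries, by group, with mean ± SD of 4 libraries beside the points and each vertical axis starting at 0. Igf1 and Igfbp6 separate the uninjured genotypes, and Igf1r, Igf2r, Igfbp5 and Igfbp7 separate uninjured from 3 DPI controls.

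The second comparison set the same genotypes side by side at 3 DPI. No member was called, where 0 of 14559 genes tested were called by edgeR (0%), 1362 had an unadjusted p under 0.05, and DESeq2 called 22 genes and limma 28, none of them members. DESeq2 gave no adjusted p for Igfbp2, Igfbp3 and Igfbp6 here, nor for Igfbp2 and Igfbp3 in the interaction described later, and so could not call them. With edgeR on all 8 libraries no member had an unadjusted p under 0.05, although Igfbp3 did with DESeq2, limma, median-of-ratios size factors, no filter on low counts and all 16 libraries in 1 fit, and with edgeR without control replicate 4 or without replicate 2 or 3 of the libraries labelled TRF2 MuSC-cKO. No member had groups without overlap, as 7.65% of all genes did. Igf1 was at 159, 174, 183 and 192 CPM in controls and at 210, 134.9, 214 and 138.6 CPM in the libraries labelled TRF2 MuSC-cKO. Controls were close together, and the other group lay on both sides of them. The log2 fold change was 0.03 ± 0.24, with a sign that depends on the processing.

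The member furthest apart at 3 DPI was Igfbp3, at 41.7, 34.0, 45.2 and 18.9 CPM in controls and 14.02, 20.8, 0 and 8.15 CPM in the libraries labelled TRF2 MuSC-cKO. The groups overlapped by 1 library on each side. Its log2 fold change was -1.65 ± 0.76 (edgeR adjusted p = 0.532, exact permutation p of the CPM 0.0571), and Igfbp3 was listed at 0 in replicate 3, where Polr2b, a subunit of RNA polymerase II, was listed at 0 as well. Without that library Igfbp3 was at -1.25 and Igfbp2 at 0.71 on the log2 scale (edgeR adjusted p = 0.263 and 0.647). Igfbp2 was at 18.5, 16.5, 9.83 and 5.76 CPM in controls and 18.7, 11.5, 37.2 and 30.3 CPM in the other group, on 7 to 30 estimated counts per library (1.01 ± 0.61). Igfbp6 was at 24.7 to 49.2 and 39.2 to 58.2 CPM (0.59 ± 0.38), Igf1r at 105 to 171 and 106 to 212 CPM (0.42 ± 0.28), and Igf2r, Igfbp4, Igfbp5 and Igfbp7 were between -0.34 and -0.15. Without replicate 3 of the libraries labelled TRF2 MuSC-cKO, Igf2r went from -0.15 to -0.27, Igfbp5 from -0.34 to -0.19, Igfbp7 from -0.33 to -0.26, Igf1r from 0.42 to 0.29 and Igfbp6 from 0.59 to 0.54, while Igf1, at -0.12, and Igfbp4, at 0.030, changed sign. Among replicates 1 and 2, whose descriptions carry the same code in both genotypes, Igfbp3 was at -1.10, Igfbp6 at 0.51, and Igfbp2 at -0.20, on the other side of 0.

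The third comparison asked how injury changes the genes in control MuSCs. Here 20.2% of 15356 genes were called, 10.8% higher and 9.46% lower, and 4 of the 9 members were, Igf1r, Igf2r and Igfbp5 lower and Igfbp7 higher at 3 DPI. All 4 had groups that did not overlap, as 24.5% of all genes did.

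Igf1r (chr7:67952827-68233668, plus strand) was at 337, 397, 314 and 665 CPM without injury and at 131, 106, 171 and 105 CPM at 3 DPI. The highest injured library lay far under the lowest uninjured. The log2 fold change was -1.69 ± 0.22 (SE), a 3.23-fold fall (edgeR adjusted p = 4.11e-08). Igf2r (chr17:12682406-12769664, minus strand) was at 597, 613, 477 and 821 CPM without injury and at 378, 377, 422 and 421 CPM at 3 DPI, all under the uninjured range. Its log2 fold change was -0.60 ± 0.19, 1.52-fold and close to the fold limit (edgeR adjusted p = 0.0127). The Igf2r call was lost in 7 of 8 fits without 1 library, with adjusted p from 0.000962 to 0.0792 over the 8, and was kept without control uninjured replicate 3. It was also lost in 6 of the other 11 alternatives. Airn lies on the opposite strand over Igf2r, at 45.3 to 95.6 CPM without injury and 7.87 to 24.7 CPM at 3 DPI, and the strand setting of the counting is not stated.

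Igfbp5 (chr1:72857932-72874884, minus strand) was at 1673, 1402, 826 and 1273 CPM without injury and at 496, 512, 476 and 514 CPM at 3 DPI. The injured libraries lay close together and far under the uninjured. The log2 fold change was -1.33 ± 0.19, a 2.51-fold fall (edgeR adjusted p = 4.29e-07). Beside the falls of Igf1r, Igf2r and Igfbp5, 10 of 12 MuSC markers were called lower, at a median log2 fold change of -1.70, and 14 of 14 macrophage markers higher, and their part in these falls was not tested. Igfbp7 (chr5:77349240-77408041, minus strand) moved the other way, from 67.9, 34.2, 68.6 and 116 CPM to 136, 161, 205 and 161 CPM. Its log2 fold change was 1.26 ± 0.24, a 2.40-fold rise (edgeR adjusted p = 8.27e-05), and it was not called on the length-scaled table (adjusted p = 0.0289), where 12.1% of all genes were. Endothelial markers, among which Igfbp7 is also known, summed to 524 to 781 CPM without injury and 603 to 864 CPM at 3 DPI, with 9 of 10 higher in their mean, 0 called higher and 1 called lower. Of 10 fibroadipogenic markers, 6 were called higher and 1 lower. Their sum was 347 to 513 CPM without injury and 504 to 823 CPM at 3 DPI, with overlap. Without Dpt it went from 159 to 204 CPM to 453 to 774 CPM. The 9 myofiber markers summed to 647 to 762 CPM without injury and 1058 to 1438 CPM at 3 DPI, with 2 called higher. Without Ttn, the most abundant, the sums were 164 to 204 and 183 to 283 CPM, with overlap. Pericyte and smooth muscle markers moved the other way in their sum, from 2354 to 3357 CPM to 863 to 1137 CPM. Of these 8, 2 were called lower and 3 had a higher mean. Without Notch3 the sum went from 876 to 1207 CPM to 600 to 868 CPM. The part of these cells in the Igfbp7 rise was not tested. Polr2b and Gm34648 overlap Igfbp7 on the opposite strand. Polr2b was at 40.0 to 84.9 CPM without injury and 58.0 to 87.2 CPM at 3 DPI. Within the code that uninjured replicate 4 shares with injured replicates 3 and 4, Igf1r was at 665 against 171 and 105 CPM, Igf2r at 821 against 422 and 421, Igfbp5 at 1273 against 476 and 514 and Igfbp7 at 116 against 205 and 161 CPM.

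Igf1 did not pass the test after injury of controls. Its 3 DPI values of 159 to 192 CPM lay within the uninjured range of 113 to 284 CPM (log2 fold change -0.11 ± 0.21, edgeR adjusted p = 0.788). Macrophage markers rose beside it, with 14 of 14 called higher and a median log2 fold change of 5.04, and their share in the Igf1 reads was not tested. Igfbp2, Igfbp3, Igfbp4 and Igfbp6 were at 0.31, 0.28, 0.29 and 0.07 on the log2 scale with overlapping groups. The signs for Igf1 and Igfbp6 depend on the processing.

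The fourth comparison put the 3 DPI libraries labelled TRF2 MuSC-cKO against uninjured TRF2 MuSC-cKO, with 4.04% of 14578 genes called, 2.43% higher and 1.61% lower. Igfbp5 was the only member called. It was at 836, 1523, 1308 and 1331 CPM without injury and at 518, 454, 237 and 327 CPM at 3 DPI, with no overlap (log2 fold change -1.77 ± 0.28, 3.403-fold, edgeR adjusted p = 0.00118). Igf1 went from 58.0, 83.1, 95.9 and 72.2 CPM to 210, 134.9, 214 and 138.6 CPM. Every injured library lay above every uninjured one, but the log2 fold change of 1.11 ± 0.29 was not called (edgeR adjusted p = 0.0329). Igf1r went from 361, 270, 271 and 320 CPM to 147, 106, 198 and 212 CPM, also without overlap and not called (-0.94 ± 0.27, adjusted p = 0.0525). Groups did not overlap for 3 of the 9 members, against 14.1% of all genes. Without replicate 3 of the injured group, the library of 15389 genes, the share of all genes called was 8.46%. Igf1 (edgeR adjusted p = 0.0109), Igf1r (0.00643) and Igfbp5 were called in that fit. Igf1 was called in 6 of all 19 alternatives and Igf1r in 2. Within the code that uninjured replicate 4 and injured replicates 3 and 4 share, Igfbp5 was at 1331 against 237 and 327 CPM and Igf1 at 72.2 against 214 and 138.6 CPM. Igfbp7 was at 0.56 ± 0.31 and Igf2r at -0.41 ± 0.23 on the log2 scale, neither called. Macrophage markers rose here too, with 11 of 14 called higher, and 8 of 12 MuSC markers were called lower (median log2 fold change -1.79), and their part in these results was not tested.

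**Figure D4:**
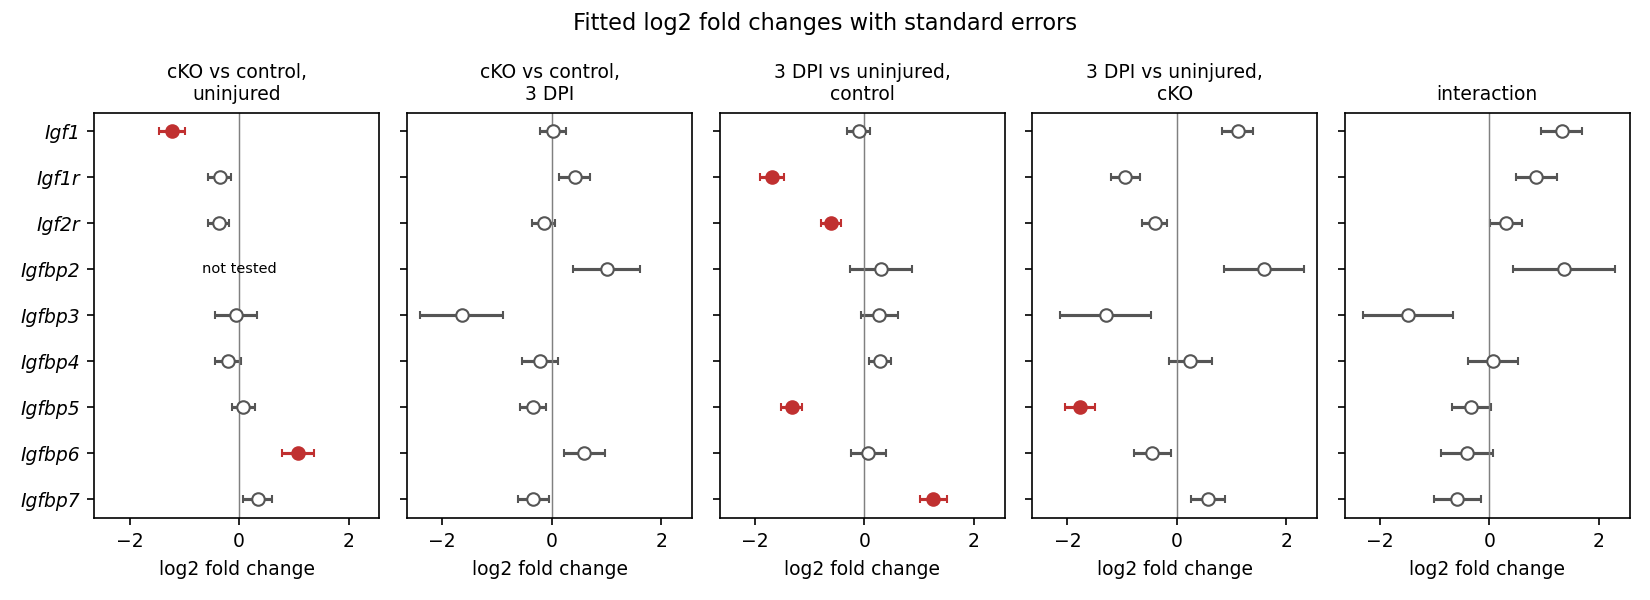
Fitted log2 fold changes with standard errors (edgeR) for the 9 genes in the 4 comparisons and in the interaction, filled red where called and open where not. Called members are 2, 0, 4, 1 and 0 from left to right, and Igfbp5 is called after injury in both genotypes.

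The difference between the genotype effects at 3 DPI and without injury was tested as an interaction on all 16 libraries, where 3 of 16822 genes (0.0178%) were called and no member was. Igf1 came nearest. Its log2 difference was 1.32 ± 0.37 (edgeR adjusted p = 0.446), with rank 59 by p, and it stayed between 1.09 and 1.52 in all 26 alternatives without being called. Igf1r followed at 0.86 ± 0.37 (adjusted p = 0.813). A genotype difference in how injury changes these genes was therefore not shown by this test, and the comparisons share their libraries.

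Promoters are shown for 4 genes that were called, Igfbp6 between uninjured genotypes and Igf1r, Igfbp5 and Igfbp7 after injury but not between genotypes. They were chosen because the study related TRF2 to G-rich DNA that can fold into G-quadruplexes. The study placed such sites mostly at promoters and also in introns and distal regions, and only the windows described next were searched here. The sequences are the bases before the RefSeq start on GRCm38.p6, 5′ to 3′ on the strand of the gene, 250 long except for Igfbp5, where bases inside an annotated exon were left out. Those of Igf1 and Igf2r are not printed. Capitals mark 4 runs of GGG, each parted from the next by N, 1 to 7 bases of any kind, searched on both strands.
Igf1r, chr7:67952007-67952256, plus strand: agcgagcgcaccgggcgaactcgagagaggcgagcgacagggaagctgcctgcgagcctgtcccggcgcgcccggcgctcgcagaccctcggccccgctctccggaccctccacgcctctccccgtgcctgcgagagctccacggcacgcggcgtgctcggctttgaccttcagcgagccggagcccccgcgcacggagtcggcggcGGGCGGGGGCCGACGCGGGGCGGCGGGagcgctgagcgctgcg
Igfbp7, chr5:77408046-77408295, minus strand: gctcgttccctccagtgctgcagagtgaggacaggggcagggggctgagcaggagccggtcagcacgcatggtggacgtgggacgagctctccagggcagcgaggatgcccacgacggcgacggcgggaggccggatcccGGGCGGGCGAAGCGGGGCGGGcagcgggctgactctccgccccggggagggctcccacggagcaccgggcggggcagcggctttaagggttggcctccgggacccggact
Igfbp5, chr1:72874885-72875115, minus strand: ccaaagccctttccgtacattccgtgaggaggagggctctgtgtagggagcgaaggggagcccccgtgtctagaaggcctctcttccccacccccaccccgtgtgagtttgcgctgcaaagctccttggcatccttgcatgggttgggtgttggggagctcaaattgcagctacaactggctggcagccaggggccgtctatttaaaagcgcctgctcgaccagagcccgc
Igfbp6, chr15:102143936-102144185, plus strand: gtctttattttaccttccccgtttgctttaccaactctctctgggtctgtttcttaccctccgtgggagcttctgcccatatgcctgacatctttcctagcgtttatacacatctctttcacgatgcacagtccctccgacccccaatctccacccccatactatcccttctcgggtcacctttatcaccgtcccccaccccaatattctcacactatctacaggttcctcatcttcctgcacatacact
The run lay 43 to 17 bases before the RefSeq start of Igf1r, which fell after injury, and 110 to 90 bases before that of Igfbp7, which rose. RefSeq starts can differ from the GENCODE gene starts given earlier. The Igf1r window ends at 67952256, where the GENCODE gene starts at 67952827. The Igf1 window, chr10:87860861-87861110, lies inside the GENCODE gene and overlaps 2 annotated exons. The letters were not in the windows of Igfbp5 and Igfbp6, nor in those of Igf1, Igf2r and Igfbp3, and they were in that of Igfbp4 and in 1 of 2 for Igfbp2. Of all 27025 mouse promoters of this length, 16.2% hold them. The windows differed in base composition, from 77.6% GC in Igf1r, above 97.8% of promoters, and 74.0% in Igfbp7 to 58.8% in the full window of Igfbp5 and 49.6% in Igfbp6, against a median of 52.0%. A match is a stretch of letters, and binding of TRF2 was not analysed here.

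The rest of the pathway was described from 65 listed genes outside the 9 members. Between uninjured genotypes, 60 were tested and 3 were called, all lower, 5.0% beside the 3.22% of all genes, at a median of -0.11 on the log2 scale against 0.06 for all genes. Nedd4, a ubiquitin ligase known to act on the IGF1 receptor with the adaptor Grb10, was at 963 to 1454 CPM in control and 375 to 677 CPM in TRF2 MuSC-cKO (log2 fold change -1.12 ± 0.20, edgeR adjusted p = 0.000265). Foxo1 and Foxo4, transcription factors that AKT keeps out of the nucleus, were lower, with log2 fold changes of -0.78 ± 0.19 (adjusted p = 0.00760) and -1.03 ± 0.23 (adjusted p = 0.00335). Foxo1 was at 367 to 443 CPM in control and 175 to 237 CPM in TRF2 MuSC-cKO, and Foxo4 at 131 to 198 and 42.9 to 97.7 CPM. None of the 11 other ligands, carriers and proteases tested was called, nor any of the 6 other receptors and RNA-binding proteins. At 3 DPI none of 60 was called by genotype. The smallest p there were those of Grb10, at 167 to 253 CPM in control and 68.2 to 123 CPM in the other group, or 114 to 123 CPM without its replicate 3 (-0.93 ± 0.25, edgeR adjusted p = 0.452), Nedd4 (-0.66 ± 0.22, adjusted p = 0.455) and Htra3 (-0.74 ± 0.29, adjusted p = 0.514).

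After injury of controls 8 of 60 were called higher and 17 lower, 41.7% in all beside the 20.2% of all genes, with a median of -0.24 on the log2 scale. Of the adaptors next to the receptor 3 were higher and 7 lower of 14, and of the PI3K, AKT, mTOR and FOXO genes 2 were higher and 6 lower of 28. Foxo1 fell from 367 to 443 CPM to 60.2 to 86.4 CPM (-2.40 ± 0.20, edgeR adjusted p = 3.2e-13), and Htra3, a secreted serine protease, from 424 to 766 CPM to 76.7 to 129 CPM (-2.30 ± 0.21, adjusted p = 3.8e-12). Ctsd, a lysosomal protease that can cleave binding proteins and that macrophages hold in quantity, rose from 122 to 150 CPM to 3119 to 4097 CPM (4.88 ± 0.21, 29.5-fold, adjusted p = 4.75e-22). Macrophage markers rose in the same libraries, and their part in Ctsd was not tested. In the TRF2 MuSC-cKO libraries 9 of 60 were called, a share of 15% beside the 4.04% of all genes, with 2 higher, Ctsd (5.04 ± 0.32) and Grb2, and 7 lower, among them Htra3 (-2.37 ± 0.26) and Socs3, a feedback inhibitor of cytokine and insulin signalling (-2.26 ± 0.28, adjusted p = 0.000181). In the interaction none of 61 was called. The smallest p there were those of Socs3 (-0.86 ± 0.36), Trim63 (-2.31 ± 1.13) and Pik3cd (-0.94 ± 0.46), with edgeR adjusted p of 0.784, 0.863 and 0.863.

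**Figure D5:**
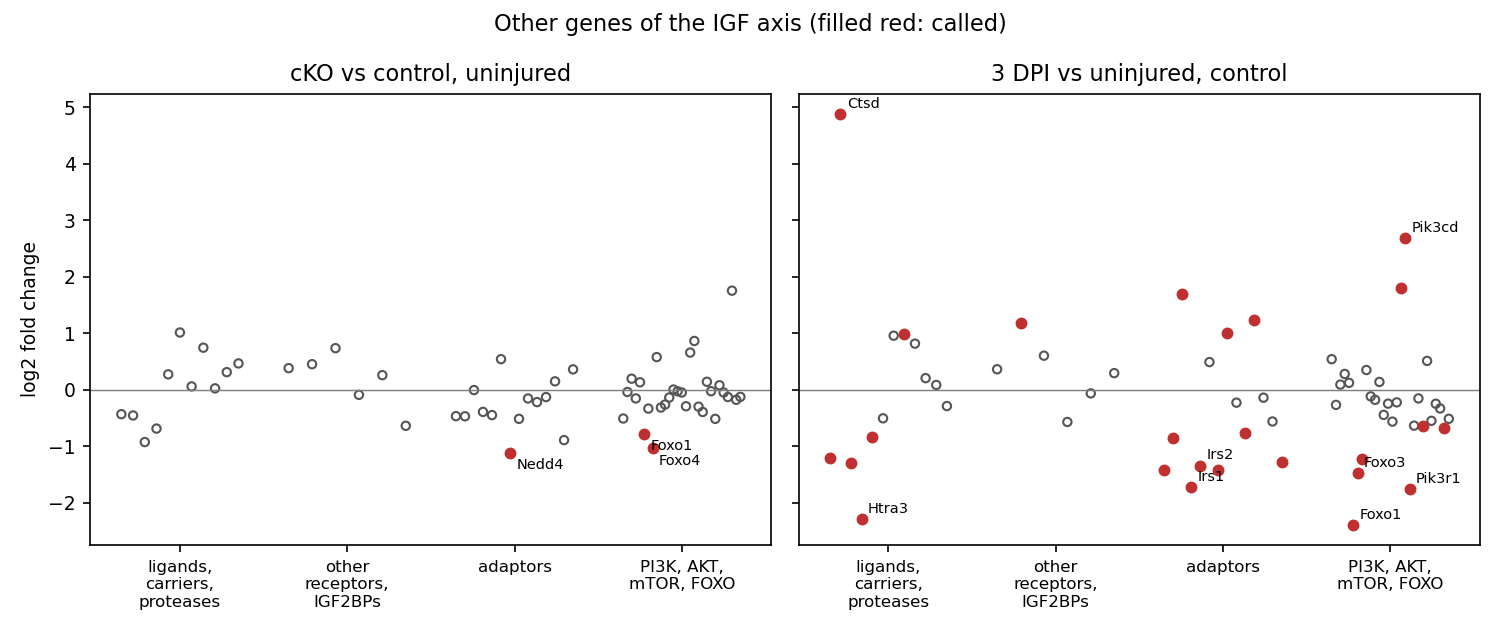
Log2 fold changes of the other listed genes of the IGF pathway in 4 classes, for TRF2 MuSC-cKO against control without injury (left) and 3 DPI against uninjured control (right), filled red where called. On the left 3 of 60 genes are called, all lower. On the right 8 are called higher and 17 lower.

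Genes with the most similar pattern to a member were named by Pearson's r of log2 CPM over the 16 libraries among 16487 genes. For Igf1 these were Tmed9, Ankfy1 and Frmd4a at 0.85 each, for Igf1r Sorbs3 and Atp2b4 at 0.95 and Csnk1d at 0.94, and for Igfbp5 Slc43a3, Kmt2e and Med13 at 0.96. The points share the 4 groups of the design, so these values are a description only. Among the members, the highest r was 0.79, for Igf1r and Igf2r, and the lowest -0.69, for Igf1r and Igfbp7.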

How the data were processed

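After ribosomal RNA depletion, RNA of sorted MuSCs was turned into stranded, random-primed libraries (CORALL), and whether molecular identifiers collapsed duplicates is not stated. Per the submitters' processing notes, reads were trimmed with Trim Galore 0.6.7, aligned with STAR 2.6.1d and quantified with Salmon 1.5.2 on GRCm38. The authors deposited estimated counts per gene, not normalized, and a second table of estimated counts scaled by abundance to library totals.

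Rounded counts of the 8 libraries compared were filtered (filterByExpr), scaled by TMM and fitted with edgeR's robust quasi-likelihood test (edgeR 4.0.16, R 4.3.3) with Benjamini-Hochberg adjustment over all genes. The interaction used 16 libraries. The SE is the log2 fold change divided by the root of the F statistic. CPM used TMM over 16 libraries, and log2 CPM a prior count of 2. Of 24411 genes 95.8% matched GENCODE M21. The fits were tested on simulated data first. Alternatives included DESeq2 1.42.0, limma 3.58.1, other scalings and filters, the scaled table, a replicate block and leaving out each library.

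The members, gene lists and tests were chosen with earlier results of these data known. Named are all members, listed pathway genes called between genotypes or in the interaction, the 3 listed genes of smallest p per comparison, and the 3 genes most like Igf1, Igf1r and Igfbp5. Grb2, Dcn, Smoc2, Dpt, Rgs5, Cspg4, Notch3 and Ttn, and Airn and Polr2b, which overlap a member, were named after their values were seen. Replicates are described as biological, with no mouse named, so p-values measure the spread between these libraries.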

Additional observations from a re-analysis of the deposited data

How the results depend on the processing

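Shares in brackets are those of all genes called in the same fit. Among uninjured genotypes 2 members were called (3.22%), and the count was 1 with median-of-ratios size factors (3.3%), no filter on low counts (2.53%) and all 16 libraries in 1 fit (0.487%), and 0 with limma (2.13%), the scaled table (0.101%) and the length offset (3.12%). It was 1 to 2 without each library (1.73% to 3.76%). After injury of controls it was 4 (20.2%), and 2, Igf1r and Igfbp5, with the scaled table (12.1%), 3 with limma (20.6%), library size alone (19.9%), a minimum of 10 counts (26.7%), all 16 libraries in 1 fit (9.48%) and the replicate block (18.5%), and 3 to 4 without each library (16.2% to 20.5%). After injury in TRF2 MuSC-cKO it was 1 (4.04%), but 2 with all 16 libraries in 1 fit (7.16%), library size alone (4.47%), adjusted p under 0.05 (5.84%) and a minimum of 10 counts (11.1%), 3 with DESeq2 (6.81%), and 1 to 3 without each library (2.28% to 8.46%). At 3 DPI between genotypes and in the interaction it was 0 in every alternative run (at most 0.192% and 0.731%), which does not show that members did not differ. Causes were not tested.

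Library size alone moved the median of all genes by 0.19, 0.11, 0.16, 0.12 and -0.16 on the log2 scale in the 5 comparisons, in the order of the text. With it the difference of mean CPM of Igf1 without injury went from -118 to -87.9 (exact permutation p from 0.0286 to 0.0571), and differences turned to 1.16 CPM for Igfbp3 and 192 CPM for Igfbp5 without injury, 15.4 CPM for Igf1 at 3 DPI and 3.82 CPM for Igf1 after injury of controls.

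Uncalled log2 fold changes changed sign as follows. Without injury, Igfbp3 was at 0.036 with limma, 0.11 with library size alone and -0.27 to 0.15 without each library, and Igfbp5 at -0.050 with all 16 libraries in 1 fit and -0.11 to 0.21 without each. At 3 DPI, Igf1 was at -0.00458 with limma, -0.064 with no filter, -0.021 with all 16 libraries, -0.00502 with the replicate block and -0.12 to 0.12 without each library, and Igfbp4 at -0.41 to 0.030 without each. Within the label code that both genotypes share Igfbp2 was at -0.20, Igfbp4 at 0.029 and Igfbp7 at 0.17. After injury of controls, Igf1 was at 0.049 with library size alone, 0.0020 with a minimum of 10 counts, 0.12 with the scaled table, 0.20 with the length offset and -0.33 to 0.12 without each library, and Igfbp6 at -0.014 with the scaled table and -0.15 to 0.23 without each. In the interaction Igfbp4 was at -0.10 with library size alone, -0.058 with no filter, -0.00804 with a minimum of 10 counts and -0.12 to 0.32 without each.

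Same-numbered libraries did not deviate together (r from -0.110 to 0.111), so numbers do not pair them, and with the replicate block 2, 0, 3, 1 and 0 members were called, beside 3.82%, 0%, 18.5%, 2.5% and 0.00594% of all genes. Low counts limit Igfbp2 (2 to 30 estimated counts per library) and Igfbp3 (0 to 46). Of 900 alternative log2 fold changes, 823 kept their direction and side of the thresholds.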
